A study of Homo sapiens with 18 samples.

Results

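CDKN1A encodes p21, and 2 CRISPR guides against it, CDKN1A guide 2 and CDKN1A guide 1, were compared with each other. Each guide had 2 libraries, so 4 of the 18 libraries of the series entered the comparison, and they were chosen by the guide number in their labels, not by any measured value. The cells were hiF-T, a human line made from BJ skin fibroblasts in which hTERT, the catalytic subunit of telomerase, can be induced. The compared groups were the 2 libraries labelled as CDKN1A knockdown with guide 2 and the 2 libraries labelled as CDKN1A knockdown with guide 1. The level in the 4 libraries with a control guide (2 guides, titled as backbone) is given beside most genes. All of these libraries are labelled wild type in genotype, and all come from the one hiF-T line. Poly(A) mRNA was sequenced, and the remaining 10 libraries, with guides against KDM1A or SPP1, served to estimate the spread between libraries of a guide. The sources used here do not give the guide sequences, how the guides lower the mRNA, whether the control guides are non-targeting, or whether the biological replicates are separate cultures. The p-values therefore measure the spread between libraries of a guide and may hold technical spread only.

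p21 binds cyclin-dependent kinases and holds cells at the G1/S boundary. Its gene is the classical transcriptional target of p53, and in fibroblasts p21 is best known for the arrest that follows DNA damage and accompanies senescence.

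The libraries of guide 2 held 14442754 and 13306264 estimated counts, those of guide 1 16202641 and 15484236, and all 18 ranged over 11907197 to 17016094. The listed fibroblast markers were present apart from THY1, a surface marker of fibroblasts, which had 0 to 1.19 TPM in the 8 CDKN1A and control libraries. The 12 markers summed to 9830 to 10200 TPM (the authors' transcript abundance, scaled to length and library total) with guide 2, 9410 to 9550 TPM with guide 1 and 9570 to 10300 TPM in control. Keratinocyte markers summed to 152 to 158 TPM with guide 2, 145 to 168 TPM with guide 1 and 148 to 171 TPM in control, with KRT1 at 0 in all 3 groups and nearly all of the sum from KRT10. Melanocyte markers summed to 8.06 to 8.11, 9.29 to 11.0 and 8.43 to 10.9 TPM in guide 2, guide 1 and control, and endothelial and leukocyte markers to 110 to 111, 108 to 117 and 94.4 to 121 TPM, with CD3E at 0. Nearly all of the endothelial and leukocyte sum came from CD68 (63.8 to 91.3 TPM) and TEK (23.9 to 32.9 TPM). None of the 12 keratinocyte, melanocyte, endothelial and leukocyte markers that passed the filter on low counts differed between the guides (smallest adjusted p 0.0862, CD68, edgeR). In bulk RNA, fewer cells of a type and less RNA per cell cannot be told apart.

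CDKN1A mRNA was higher with guide 2 than with guide 1, and lower with both than in control. The gene lies on chromosome 6 at 36676460 to 36687339 of GRCh38, on the plus strand. It measured 434 and 427 CPM (counts scaled to the library's total) with guide 2 and 290 and 275 CPM with guide 1, against 686, 627, 588 and 540 CPM in control, all scaled by TMM. The 3 groups did not overlap: every library of guide 2 stood above every library of guide 1 and below every control library. Guide 2 exceeded guide 1 by 0.61 ± 0.10 on the log2 scale (SE), 1.52-fold, with an adjusted p of 0.00462 by edgeR's quasi-likelihood test with the Benjamini-Hochberg correction over all 13976 genes tested. The mRNA left was 70.8% of control with guide 2 (adjusted p 0.00231, edgeR) and 46.5% with guide 1 (3.8e-06). When single CDKN1A libraries were left out, the difference between the guides lay between 0.57 and 0.65 and its adjusted p between 0.0436 and 0.0895, under 0.05 only without guide 2 replicate 2. An exact permutation test of 2 libraries against 2 cannot go below p = 0.333 (two-sided).

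**Figure D1:**
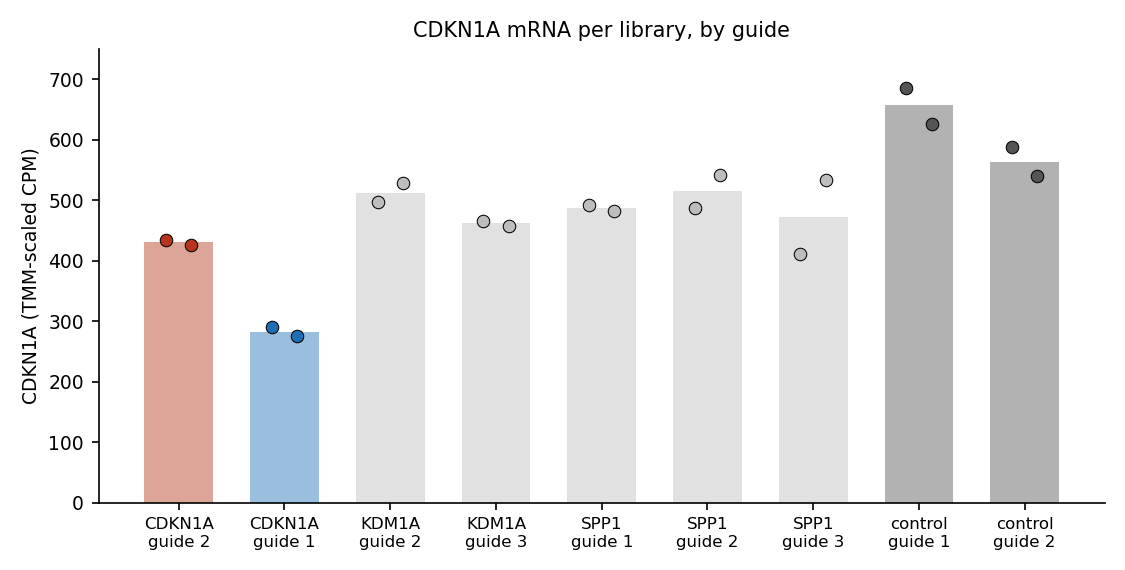
CDKN1A level in TMM-scaled CPM for each of the 9 guides of the series; points are single libraries (n = 2 a guide) and bars their means. The libraries of CDKN1A guide 2 sit at 434 and 427 CPM, those of CDKN1A guide 1 at 290 and 275 CPM, and the control libraries at 540 to 686 CPM.

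The libraries with guides against KDM1A and SPP1 give a second yardstick. CDKN1A lay between 411 and 542 CPM in those 10 libraries, with a median of 490 CPM. Both libraries of guide 2 lay inside that range, and both of guide 1 below it. Set against these 5 guides, CDKN1A was lower by 0.18 ± 0.07 on the log2 scale with guide 2 (adjusted p 0.111, edgeR, not passing the test) and lower by 0.79 ± 0.08 with guide 1 (adjusted p 2.85e-05). In these comparisons 16.4% of all genes were called for guide 2 and 8.31% for guide 1.

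Most CDKN1A counts fell on 1 transcript. CDKN1A-201 (ENST00000244741), which codes for p21, took 92.7 and 94.0% of the gene's estimated counts with guide 2, 95.6 and 94.5% with guide 1 and 96.2 to 97.6% in control. Another coding transcript, CDKN1A-203 (ENST00000405375), had 134 and 155 estimated counts with guide 2, 0 and 58.8 with guide 1 and 0 to 85.6 in control. Its guide 2 libraries were the highest of these groups, but the division of reads among overlapping transcripts is itself estimated, and no test was made at the transcript level.

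The next gene downstream on the same strand, RAB44, a member of the RAB GTPase family, starts 10470 bases after the end of CDKN1A. It was singled out after its values were seen. It had 58 and 57 estimated counts with guide 2 (4.09 and 4.33 CPM) and 16 and 21 with guide 1 (1.01 and 1.37 CPM), against 0 in each of the 4 control libraries. The CDKN1A guides were thus the only guides with more than 3 counts of RAB44 in a library, since the KDM1A and SPP1 libraries had 0 to 3. The difference between guide 2 and guide 1, 1.82 ± 0.46 on the log2 scale, did not pass (adjusted p 0.113, edgeR). None of the 10 tested genes of the CDKN1A neighbourhood passed between the guides, the smallest adjusted p being 0.0698 for KCTD20, at 67.9 and 70.0 CPM with guide 2, 96.2 and 91.0 CPM with guide 1 and 75.4 to 99.3 CPM in control. Against control, 1 of the 10 was called higher and 1 lower with guide 2 (2.84% and 3.12% of all genes). The 1 called lower was KCTD20 (log2 -0.36, adjusted p 0.0376, edgeR). With guide 1, 1 was called higher (2.37% of all genes) and none lower.

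Across the transcriptome 165 of 13976 genes differed between the guides at an adjusted p under 0.05, 1.18% of those tested. With guide 2, 92 genes were higher (0.658%) and 73 lower (0.522%). Of these, 163 code for proteins, and the median size of a called difference was 0.5 on the log2 scale. Only 21 differed at least 2-fold, 7 of them higher and 14 lower. The libraries of the guides did not overlap in any of the 165 genes, and they did not overlap in 44.6% of all genes tested either. For scale, the 2 control guides differed from each other in 185 genes (1.32%), the 2 KDM1A guides in 808 (5.78%), and the 3 pairs of SPP1 guides in 293 (2.1%), 363 (2.6%) and 15 (0.107%). The CDKN1A and control guide pairs share no library, and 36 genes were called in both, 21.8% of the CDKN1A calls and 19.5% of the control calls. Both comparisons took each gene's spread from the same fit, so their calls are not independent. Against control, 833 genes were called with guide 2 (5.96%, of which 2.84% higher and 3.12% lower) and 631 with guide 1 (4.51%, of which 2.37% higher and 2.15% lower). These comparisons share the control libraries and are not independent. The shares over all genes tested are the background for the list counts given further on.

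The number of calls depended on single libraries: leaving out 1 CDKN1A library at a time left 57, 54, 45 or 51 genes (without guide 2 replicate 1, guide 2 replicate 2, guide 1 replicate 1 and guide 1 replicate 2), and 33 genes were called in all 4 of these fits. Of the 54 called genes named by rule, 16 were among them: HMOX1, ITPR3, NEFM, RGS5, CPA4, SULF1, TRIB3, MTHFD2, FTH1, TNC, COL11A1, BGN, COL4A1, SMAD7, LTBP2 and MMP1. All 54 kept their direction under each of the 17 alternatives.

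**Figure D2:**
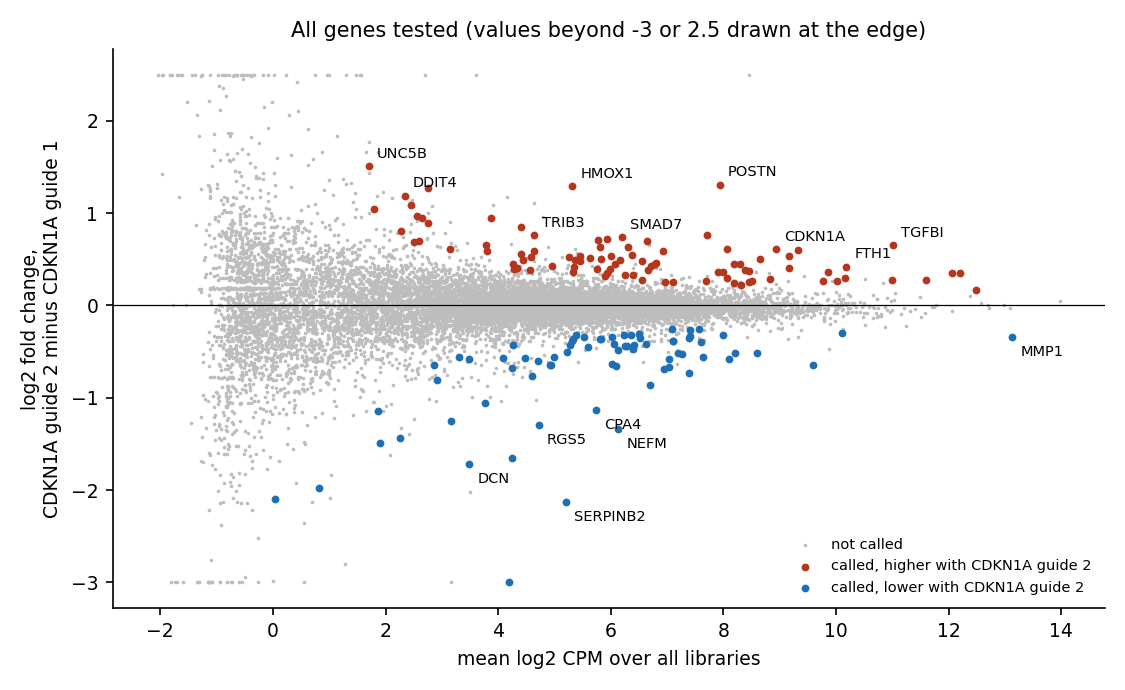
Each point is 1 of the 13976 genes tested, by its mean log2 CPM over all libraries (x) and its log2 fold change, CDKN1A guide 2 minus CDKN1A guide 1 (y). The 92 genes called higher (red) and the 73 called lower (blue) with guide 2 lie mostly within 1 log2 unit of 0.

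In the p53 and cell cycle lists, the pathway in which p21 acts, no gene passed the test between the guides. None of 26 tested p53 targets passed (median log2 -0.02, against -0.01 over all genes), nor did any of 23 genes of G1/S and DNA replication (median 0.0), of 23 genes of G2/M and mitosis (median -0.06, 20 of them below 0) or of 10 other CDK inhibitors and pocket proteins (median -0.03). The p53 target closest to the threshold was TP53I3, an oxidoreductase gene, with 54.1 and 49.4 CPM under guide 2, 41.6 and 40.9 CPM under guide 1 and 41.7 to 49.1 CPM in control (adjusted p 0.144, edgeR). In the mitotic list AURKA, a spindle kinase, came closest, with 86.1 and 86.9 CPM under guide 2, 102 and 95.1 CPM under guide 1 and 88.7 to 102 CPM in control (adjusted p 0.436). In the G1/S list the smallest adjusted p was 0.772, for SLBP. Over all genes tested, 2.84% were called higher than control with guide 2 and 2.37% with guide 1. Set against control, each guide on its own had 10 of the 26 p53 targets higher and none lower. Their median log2 was 0.23 for guide 2 and 0.21 for guide 1. Both medians rest on the same control libraries. The control guides differed from each other in this list too, with a median of -0.16 for control guide 2 against control guide 1, 21 of 26 genes below 0 and 2 called lower. Of the 23 genes of G2/M and mitosis, 3 were called higher than control with guide 2 (median 0.1) and 4 with guide 1 (median 0.16), and none lower; 1 was called lower in control guide 2 than in control guide 1 (median -0.08).

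Genes of the integrated stress response and of amino acid supply were called higher with guide 2, and none of them lower. In the integrated stress response, kinases that sense amino acid shortage, unfolded protein or other stress phosphorylate eIF2alpha, overall translation drops, and translation of the transcription factor ATF4 rises. ATF4, often paired with a C/EBP factor, then switches on genes for amino acid synthesis and uptake, for charging tRNAs, and for feedback on the response. Such targets carry a C/EBP-ATF response element (CARE) in their promoters. The letters searched were TGATGNAAN, on both strands, over the 250 bases before and 50 after each gene's start in RefSeq's GRCh38.p14. They occurred in 1.81% of 10618 promoters of tested genes, in 4 of 14 promoters of the stress response list (ASNS, ATF3, CHAC1, FGF21), in 2 of 13 of the amino acid list and in 6 of 11 of the tRNA synthetase list. Among genes called higher with guide 2, 3 of 75 promoters had them (4.0%), those of ASNS, AARS and SLC3A2; among genes called lower, 1 of 50 (2.0%). These 3 are shown on the gene's own strand, with the matched letters in capitals; none overlaps the antioxidant element searched further on, and a match is a description, not a mapped binding site.
ASNS, chr7:97872438-97872506, minus strand, match starting at -68 from the gene's start: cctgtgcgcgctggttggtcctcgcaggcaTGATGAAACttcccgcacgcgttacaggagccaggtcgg
AARS, chr16:70289656-70289724, minus strand, match on the reverse strand at -188: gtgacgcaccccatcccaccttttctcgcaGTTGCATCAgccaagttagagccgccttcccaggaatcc
SLC3A2, chr11:62881725-62881748, plus strand, match on the reverse strand at 36: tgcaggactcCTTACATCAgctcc

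All 15 tested genes of the stress response list had a log2 difference above 0, against 48.3% of all genes, with a median of 0.3. Of these 15, 5 passed the test as higher with guide 2 (TRIB3, VEGFA, DDIT4, CEBPG and ASNS) and none as lower, against 0.658% higher over all genes. Against control, 8 were called higher and none lower with guide 2, and 2 higher and 1 lower with guide 1. Over all genes tested, 2.84% were called higher than control with guide 2 and 2.37% with guide 1. The list also shifted between the control guides, with 11 of the 15 below 0 for control guide 2 against control guide 1. The median there was -0.16, against 0.0 over all genes, and none was called. The list was put together with earlier results of these cells known, so its direction is a description.

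TRIB3, a pseudokinase that feeds back on ATF4, measured 49.5 and 49.4 CPM with guide 2 and 29.3 and 29 CPM with guide 1, against 22, 20.8, 25.3 and 24.5 CPM in control. Guide 2 stood highest, guide 1 stood between, and no libraries overlapped between the groups. The guides differed by 0.76 ± 0.10 on the log2 scale (adjusted p 0.000881, edgeR), and the difference from control was 1.10 with guide 2 and 0.34 with guide 1. ASNS, asparagine synthetase, measured 78.5 and 81.7 CPM with guide 2 and 54.7 and 55.1 CPM with guide 1, against 51.8, 46.4, 38.7 and 41.0 CPM in control, in the same order and without overlap (log2 0.54 ± 0.11 between the guides, adjusted p 0.027). The difference of guide 1 from control did not pass for ASNS (adjusted p 0.102, edgeR), while it did for TRIB3 (0.0383). DDIT4, an inhibitor of mTORC1, measured 13.2 and 12.1 CPM with guide 2 and 5.75 and 5.33 CPM with guide 1, against 6.35, 5.64, 3.38 and 4.35 CPM in control. Here guide 2 lay above the control range and guide 1 inside it (2.28-fold over guide 1, adjusted p 0.00591). CEBPG, a C/EBP factor that pairs with ATF4, measured 44.3 and 46.7 CPM with guide 2 and 34.8 and 32.8 CPM with guide 1, against 28.4 to 33.8 CPM in control (log2 0.43 ± 0.09, adjusted p 0.0204). VEGFA, the angiogenic growth factor, measured 58.0 and 53.9 CPM with guide 2, 38.7 and 39.7 CPM with guide 1 and 33.8 to 39.8 CPM in control (log2 0.52 ± 0.08, adjusted p 0.00483); with an offset for transcript length its difference was 0.22 and no longer passed (adjusted p 0.773). ATF4 mRNA itself did not pass, at 378 and 375 CPM with guide 2, 335 and 321 CPM with guide 1 and 320 to 383 CPM in control (adjusted p 0.279). Nor did DDIT3, which encodes the stress factor CHOP (11.5 and 13.7 CPM with guide 2, 11.5 and 10.4 CPM with guide 1, 13.3 to 14.7 CPM in control, adjusted p 0.859). ATF3, another stress factor, did not pass either (8.25 and 7.99 CPM with guide 2, 6.57 and 8.78 CPM with guide 1, 9.79 to 14.9 CPM in control, adjusted p 0.97).

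Of 19 genes that make or import amino acids and one-carbon units, 7 passed the test as higher with guide 2 and none as lower. The median log2 difference was 0.35, with 17 members above 0 and 2 below it (SLC38A2 at -0.01 and CBS at -0.22, neither passing). Against control, 8 were higher with guide 2 and 1 with guide 1. Over all genes tested, 0.658% were higher with guide 2 than with guide 1. Higher than control were 2.84% with guide 2 and 2.37% with guide 1. The enzymes called were MTHFD2 of mitochondrial folate metabolism, PSAT1 of serine synthesis and ALDH1L2, a mitochondrial folate enzyme. MTHFD2 measured 154 and 155 CPM with guide 2 and 111 and 113 CPM with guide 1, against 112, 106, 115 and 118 CPM in control. The guide 2 libraries lay above the control range and those of guide 1 within it (log2 0.46 ± 0.05, adjusted p 0.00038, edgeR). PSAT1 measured 139 and 138 CPM with guide 2, 99.9 and 89.5 CPM with guide 1 and 78.8 to 89.8 CPM in control (log2 0.55 ± 0.11, adjusted p 0.0185). The transporters called were SLC1A4, SLC1A5, SLC7A5 and its partner SLC3A2, with log2 differences of 0.45, 0.30, 0.45 and 0.36. SLC1A4 measured 29.7 and 28.5 CPM with guide 2, 21.8 and 20.8 CPM with guide 1 and 19.8 to 22.7 CPM in control. For SLC7A5, which imports large neutral amino acids, guide 2 (421 and 378 CPM) lay above control (337 to 365 CPM) and guide 1 (297 and 289 CPM) below it. For SLC1A5, which imports glutamine, guide 2 (315 and 294 CPM) lay above control (267 to 289 CPM) and guide 1 (252 and 243 CPM) below it. PHGDH, the first enzyme of serine synthesis, and SLC7A11, the cystine importer, did not pass (adjusted p 0.121 and 0.275), with PHGDH at 158 and 158 CPM with guide 2, 122 and 113 CPM with guide 1 and 92.6 to 138 CPM in control. PCK2, the mitochondrial phosphoenolpyruvate carboxykinase and outside the list, was among the 12 largest rises, with 10 and 10.6 CPM under guide 2, 5.62 and 4.88 CPM under guide 1 and 5.51 to 6.89 CPM in control (1.96-fold, adjusted p 0.00408).

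Of 17 aminoacyl-tRNA synthetases, WARS (log2 0.33) and AARS (0.25) passed as higher (adjusted p 0.0168 and 0.0231, edgeR), and the median of the list was 0.12. The share called higher over all genes was 0.658%. WARS, for tryptophan, measured 110 and 115 CPM with guide 2, 93.5 and 86.2 CPM with guide 1 and 83.1 to 87.8 CPM in control. AARS, for alanine, measured 164 and 165 CPM with guide 2, 139 and 138 CPM with guide 1 and 126 to 146 CPM in control. Genes of the unfolded protein response of the endoplasmic reticulum, the neighbouring branch, had the same median of 0.12, but none of 15 passed. The lowest adjusted p there was 0.08, for XBP1, at 101 and 99.6 CPM with guide 2, 88.0 and 80.3 CPM with guide 1 and 93.9 to 102 CPM in control.

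**Figure D3:**
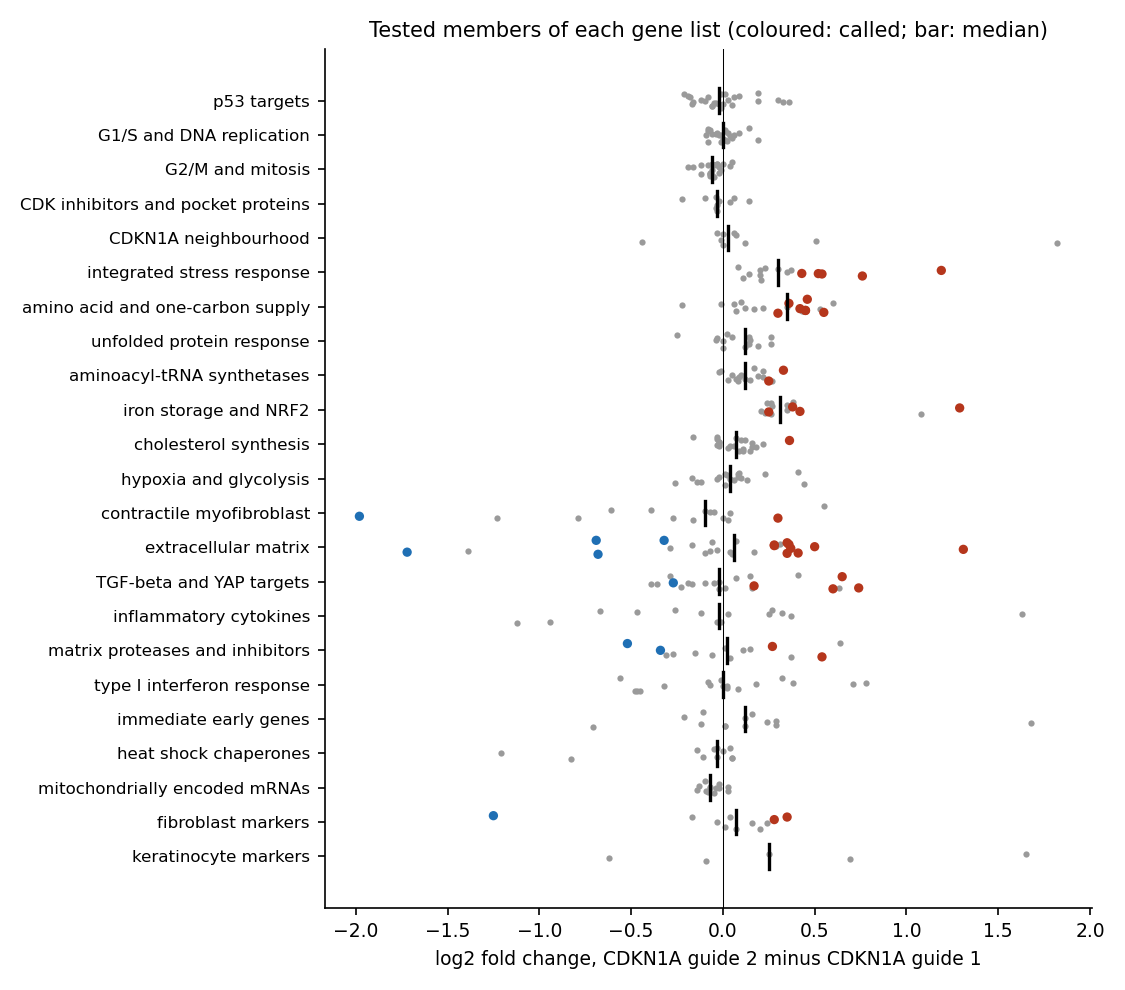
Log2 fold change, CDKN1A guide 2 minus CDKN1A guide 1, of each tested member of the gene lists with at least 5 tested members; coloured points passed the test and black bars are medians. All 15 stress response genes and all 14 iron and NRF2 genes lie above 0, while the p53 and cell cycle lists have no coloured point and the G2/M list has 20 of 23 members below 0.

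Among iron storage and NRF2 target genes, 4 of 14 were called higher with guide 2, against 0.658% of all genes tested. NRF2 is the transcription factor that answers oxidants by switching on glutathione and thioredoxin enzymes, heme breakdown and ferritin, through antioxidant response elements. All 14 tested members had a log2 difference above 0, against 48.3% of all genes, with a median of 0.31. Those that passed were HMOX1, FTH1, SRXN1 and OSGIN1. Against control, 9 were higher with guide 2 (2.84% of all genes) and none with guide 1 (2.37% of all genes), where 1 was lower. HMOX1, heme oxygenase 1, had the smallest p of these. It measured 81.2 and 73.3 CPM with guide 2 and 32.3 and 30.9 CPM with guide 1, against 60.7, 59.5, 48.1 and 45.5 CPM in control. The guides lay on opposite sides of all 4 control libraries, and differed by 1.29 ± 0.08 on the log2 scale, 2.45-fold (adjusted p 1.29e-06, edgeR). HMOX1 also differed between the 2 control guides (adjusted p 0.0375). FTH1, the ferritin heavy chain, measured 1688 and 1620 CPM with guide 2 and 1282 and 1189 CPM with guide 1, against 1204, 1208, 1205 and 1216 CPM in control (log2 0.42 ± 0.06, adjusted p 0.00103). Only guide 2 stood apart from control there, and FTH1 has processed pseudogenes that can share its reads. The glutathione enzyme GCLM and the thioredoxin reductase TXNRD1 did not pass, with GCLM at 106 and 121 CPM with guide 2, 85.8 and 92.3 CPM with guide 1 and 93.7 to 96.6 CPM in control (adjusted p 0.0548). TXNRD1 measured 1212 and 1226 CPM with guide 2, 1024 and 1000 CPM with guide 1 and 885 to 1024 CPM in control (adjusted p 0.0842). The antioxidant element, searched as TGACNNNGC on both strands of the same promoter windows, occurred in 3 of the 9 promoters of this list that were in the table (GCLM, ME1 and TXNRD1), and in 14.8% of promoters of tested genes. It occurred in 9 of 75 promoters of genes called higher with guide 2 (12%), in 8 of 50 of those called lower (16.0%) and in 5 of 13 of the amino acid list (38.5%).

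Genes for the extracellular matrix differed between the guides in both directions. Of 26 tested, 9 were higher with guide 2 (TNC, COL1A1, COL5A1, POSTN, COL6A3, COL1A2, FBN1, BGN and COL4A1) and 4 were lower (DCN, COL11A1, FBLN1 and COL3A1), with a median log2 of 0.06. Against control most calls in this list were falls, 9 lower and 1 higher with guide 2, and 12 lower and 4 higher with guide 1. Over all genes tested, 0.658% were higher and 0.522% lower between the guides. Lower than control were 3.12% with guide 2 and 2.15% with guide 1. COL1A1, the main chain of type I collagen, measured 4415 and 4164 CPM with guide 2 and 3437 and 3297 CPM with guide 1, against 4482, 4846, 4557 and 4040 CPM in control. Guide 2 lay within the control range and guide 1 below it (log2 0.35 ± 0.06, adjusted p 0.0137, edgeR), and the same order held for COL6A3 and COL1A2. COL4A1, a basement membrane collagen, was below control with both guides, at 917 and 892 CPM with guide 2 and 697 and 709 CPM with guide 1, against 1252, 1365, 1170 and 1128 CPM in control (log2 0.36 ± 0.05, adjusted p 0.00217). BGN, the proteoglycan biglycan, measured 408 and 402 CPM with guide 2 and 320 and 306 CPM with guide 1, against 367 to 397 CPM in control (log2 0.37 ± 0.05, adjusted p 0.00162).

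POSTN, periostin, a matricellular protein induced by TGF-beta, stood out by size. It measured 447 and 469 CPM with guide 2 and 186 and 185 CPM with guide 1, against 212, 214, 205 and 216 CPM in control. Guide 2 stood more than 2-fold above both other groups, and guide 1 just under control (2.47-fold between the guides, log2 1.31 ± 0.20, adjusted p 0.00329, edgeR). DCN, the proteoglycan decorin, went the other way at a low level, with 1.90 and 2.97 CPM under guide 2 and 7.20 and 8.84 CPM under guide 1, against 4.85, 3.97, 8.42 and 8.70 CPM in control (log2 -1.72 ± 0.29, adjusted p 0.00807). TNC and COL11A1 differed between the control guides as well (adjusted p 0.00354 and 4.6e-05). TNC, tenascin C, measured 453 and 433 CPM with guide 2, 322 and 305 CPM with guide 1, 352 and 327 CPM in control guide 2 and 432 and 483 CPM in control guide 1.

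Among targets of TGF-beta and of the coactivator YAP, 4 of 21 were higher with guide 2 (SMAD7, LTBP2 and TGFBI among them) and 1 was lower (BDNF, a neurotrophin, at 114 and 113 CPM with guide 2, 138 and 136 CPM with guide 1 and 170 to 184 CPM in control), with a median of -0.02. Against control most calls were falls, 8 lower and 1 higher with guide 2, and 9 lower and 1 higher with guide 1. Over all genes tested, 0.658% were higher and 0.522% lower between the guides. Lower than control were 3.12% with guide 2 and 2.15% with guide 1. TGF-beta signals through SMAD factors and drives matrix production in fibroblasts; YAP and TEAD respond to cell shape and tension. SMAD7, the inhibitory SMAD that TGF-beta itself induces, measured 108 and 109 CPM with guide 2 and 67.2 and 62.8 CPM with guide 1, against 83.1, 84.3, 92.5 and 86.0 CPM in control. Control lay between the guides without overlap (log2 0.74 ± 0.08, adjusted p 0.00038, edgeR). TGFBI, a secreted matrix protein, showed the same order, with 2919 and 2876 CPM under guide 2 and 1861 and 1830 CPM under guide 1, against 2798, 2753, 2331 and 2361 CPM in control (log2 0.65 ± 0.11, adjusted p 0.00844). LTBP2, which binds microfibrils, measured 789 and 729 CPM with guide 2, 507 and 494 CPM with guide 1 and 717 to 882 CPM in control (log2 0.60 ± 0.08, adjusted p 0.00102). The YAP targets CTGF (832 and 811 CPM with guide 2, 927 and 917 CPM with guide 1, 1228 to 1484 CPM in control) and CYR61 (1024 and 990 CPM with guide 2, 960 and 964 CPM with guide 1, 1138 to 1368 CPM in control) did not pass between the guides (adjusted p 0.231 and 0.898).

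Of 15 contractile genes, TPM1, a tropomyosin, was higher with guide 2 (1156 and 1211 CPM with guide 2, 960 and 966 CPM with guide 1, 1337 to 1659 CPM in control, adjusted p 0.0151, edgeR) and LMOD1 lower (adjusted p 0.0468), with LMOD1 at 0.228 to 1.76 CPM in all 8 libraries. Against control, 10 of the 15 were called lower and none higher with guide 2, and 7 lower and 2 higher with guide 1. The shares over all genes were 3.12% lower and 2.84% higher with guide 2, and 2.15% lower and 2.37% higher with guide 1. Among 14 matrix proteases and their inhibitors, MMP2 and SERPINE2 were higher and PLAT and MMP1 lower with guide 2. Between the guides, the shares over all genes were 0.658% higher and 0.522% lower. MMP1, interstitial collagenase, was the most abundant gene called lower, at 8439 and 8700 CPM with guide 2 and 10996 and 10691 CPM with guide 1, against 5923, 5605, 6653 and 6994 CPM in control. Both guides lay above control, guide 1 more so (log2 -0.34 ± 0.05 between the guides, adjusted p 0.00141), and MMP1 also differed between the control guides (adjusted p 0.0189). MMP2, a gelatinase, measured 723 and 695 CPM with guide 2 and 495 and 478 CPM with guide 1, with control between them at 560 to 657 CPM (adjusted p 0.00266).

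**Figure D4:**
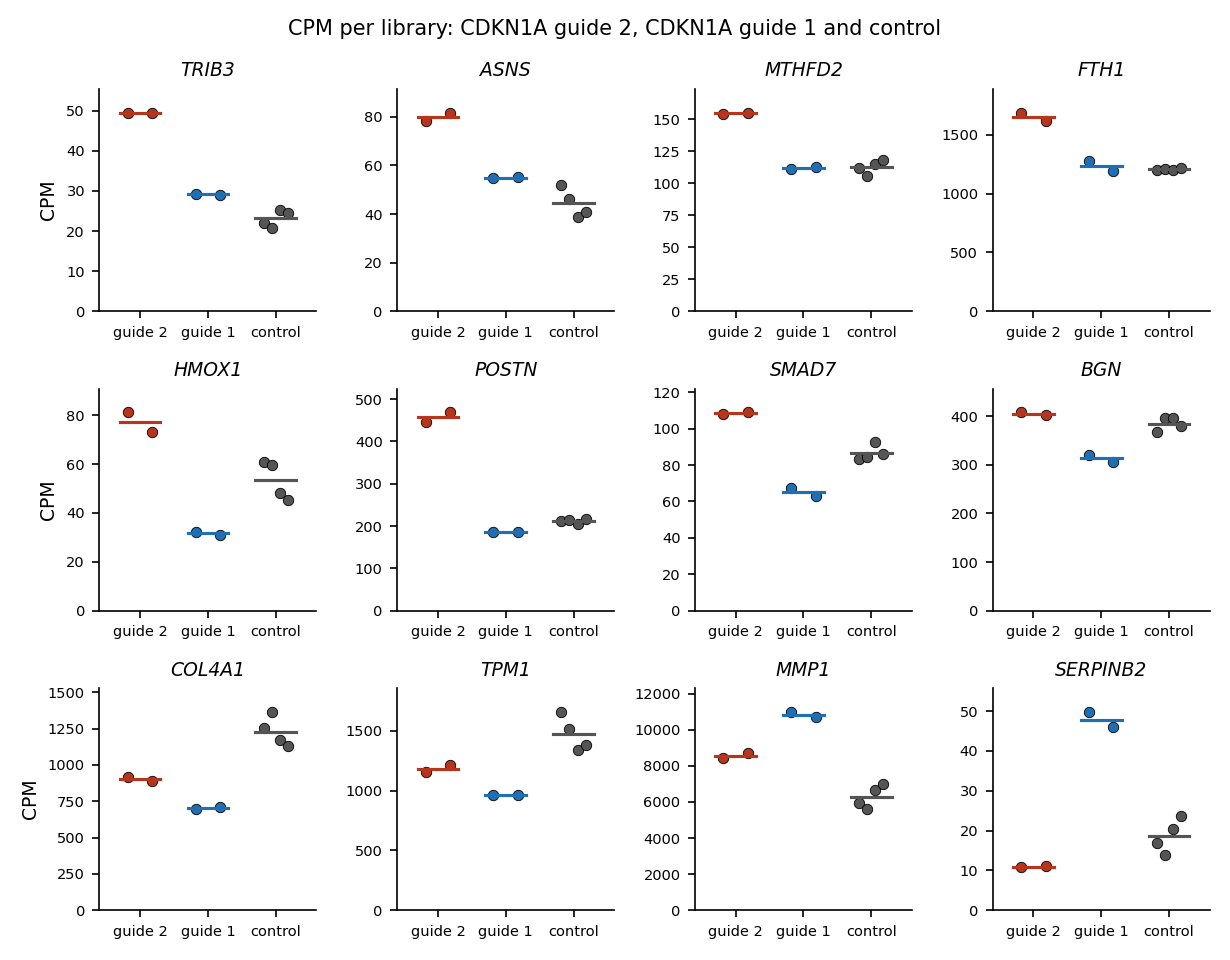
CPM in each library with CDKN1A guide 2 (n = 2), CDKN1A guide 1 (n = 2) and control guides (n = 4) for 12 called genes; lines are group means and every axis starts at 0. In the stress, folate and ferritin genes guide 2 stands highest, for HMOX1, POSTN, SMAD7 and BGN the guides lie on opposite sides of control, and for COL4A1, TPM1 and MMP1 both guides lie on the same side of it.

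Among called genes the largest rise with guide 2 was that of UNC5B, a receptor for netrins. It measured 12.2 and 12.6 CPM with guide 2 and 4.61 and 4.10 CPM with guide 1, against 2.05, 3.27, 2.32 and 2.72 CPM in control. Both guides lay above control, guide 2 by more; the difference of guide 1 from control did not pass (adjusted p 0.0728), and that between the guides did (2.84-fold over guide 1, log2 1.51 ± 0.24, adjusted p 0.0046, edgeR). ABCC3, an organic anion exporter, measured 14.1 and 13.2 CPM with guide 2, 4.99 and 6.31 CPM with guide 1 and 4.97 to 9.49 CPM in control (2.41-fold, adjusted p 0.00667). ITPR3, an inositol trisphosphate receptor, measured 27.5 and 26.5 CPM with guide 2 and 16.5 and 13.3 CPM with guide 1, but 18.4 and 18.5 CPM in control guide 2 and 30.7 and 35.0 CPM in control guide 1, so its control guides differed too (adjusted p 0.00216). The sialyltransferase gene ST6GAL2 measured 12.5 and 15.7 CPM with guide 2, 7.01 and 8.19 CPM with guide 1 and 6.76 to 11.4 CPM in control (1.85-fold, adjusted p 0.0253). PRR15 measured 3.03 and 3.65 CPM with guide 2 and 1.71 and 1.5 CPM with guide 1, against 6.14, 6.06, 3.65 and 4.74 CPM in control (2.08-fold, adjusted p 0.0464). Both guides averaged below control for PRR15 (3.34 CPM with guide 2, 1.6 CPM with guide 1 and 5.15 CPM in control), and only guide 1 was called against it (log2 -1.65, adjusted p 0.00031). NMRAL2P, an annotated pseudogene whose sharing of reads with related genes was not checked, measured 10.2 and 11.7 CPM with guide 2 and 5.18 and 6.11 CPM with guide 1, against 3.48 to 7.49 CPM in control (1.93-fold, adjusted p 0.00874), and also differed between the control guides (adjusted p 0.0167).

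Among the largest falls, SERPINB2, the plasminogen activator inhibitor PAI-2, measured 10.8 and 11.1 CPM with guide 2 and 49.8 and 45.9 CPM with guide 1, against 16.8, 13.9, 20.4 and 23.6 CPM in control. Guide 2 stood below all 4 control libraries and guide 1 far above them (log2 -2.13 ± 0.37 between the guides, adjusted p 0.00888, edgeR). Against control, guide 2 did not pass (log2 -0.74, adjusted p 0.28, edgeR) and guide 1 did (log2 1.38, adjusted p 0.0116). SFRP1, a secreted WNT antagonist, measured 6.42 and 5.48 CPM with guide 2 and 20 and 17.5 CPM with guide 1, against 15.5 to 21.0 CPM in control, and LGR5, a receptor that amplifies WNT signals, measured 1.83 and 1.75 CPM with guide 2 and 4.49 and 5.27 CPM with guide 1, against 3.83 to 5.83 CPM in control. For both, guide 2 lay below the control range and guide 1 within it (adjusted p 0.00591 and 0.00888). The same held for the carboxypeptidase gene CPA4, at 24.3 and 24.0 CPM with guide 2 and 53.3 and 52.2 CPM with guide 1, against 46.8 to 53.5 CPM in control (adjusted p 0.00217). PDGFRA, a growth factor receptor of fibroblasts, measured 3.10 and 4.26 CPM with guide 2 and 8.22 and 9.30 CPM with guide 1, against 5.19, 6.48, 9.08 and 8.47 CPM in control (log2 -1.25 ± 0.19, adjusted p 0.00329). With an offset for transcript length its difference was -0.81 and no longer passed (adjusted p 0.17).

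In JUP, SULF1 and RGS5 guide 1 lay above all 4 control libraries. JUP, the junction protein plakoglobin, measured 1.41 and 1.75 CPM with guide 2 and 3.54 and 3.45 CPM with guide 1, against 1.43 to 2.23 CPM in control (adjusted p 0.0204, edgeR). SULF1, which removes sulfate from heparan sulfate, measured 13.3 and 10.2 CPM with guide 2 and 26.3 and 22.6 CPM with guide 1, against 9.76 to 13.2 CPM in control (adjusted p 0.000881). RGS5, a regulator of G protein signalling, measured 10.9 and 8.90 CPM with guide 2 and 23.8 and 25.1 CPM with guide 1, against 9.83, 11.4, 17.7 and 18.7 CPM in control, where the control guides differed as well (adjusted p 0.019). For NEFM, a neurofilament subunit, guide 2 lay below all 4 control libraries and guide 1 within their range, at 20.6 and 21.5 CPM with guide 2 and 53.4 and 53.3 CPM with guide 1. In control it measured 78.2 and 80.5 CPM in the libraries of control guide 2 and 40.3 CPM in both of control guide 1, which differed too (adjusted p 4.6e-05).

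**Figure D5:**
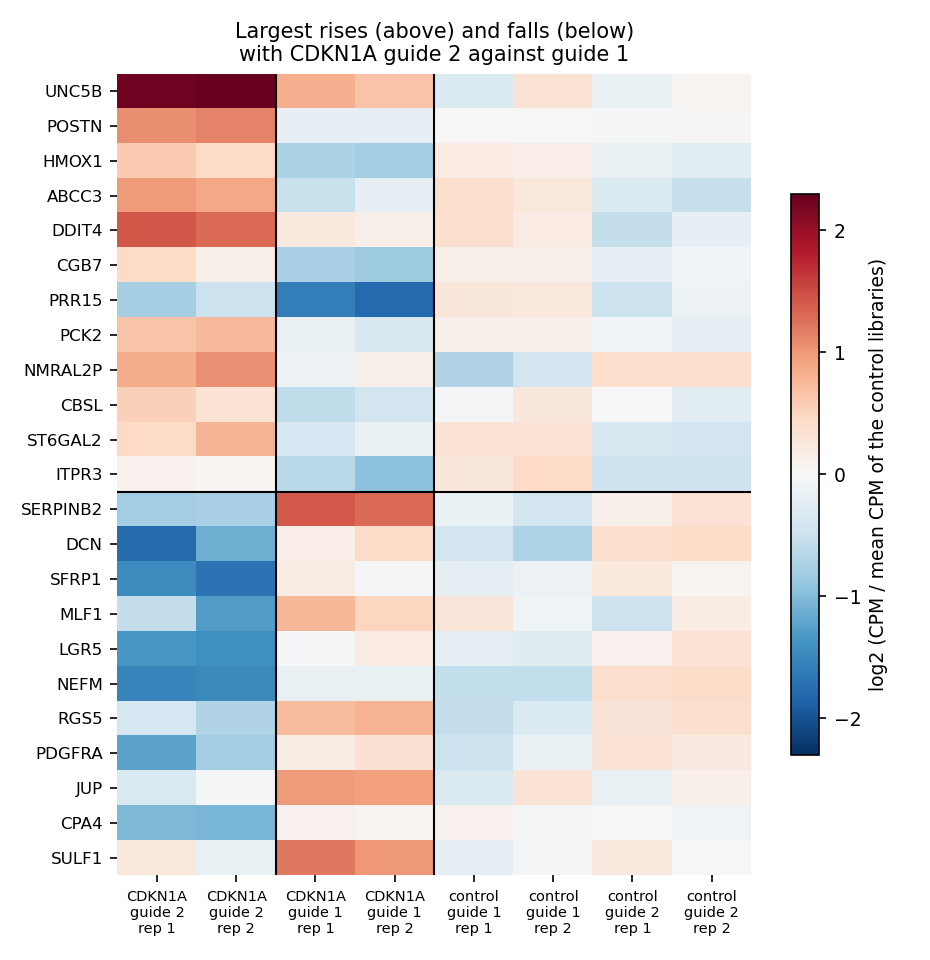
Log2 ratio of each library's CPM to the mean CPM of the 4 control libraries, for the largest rises and falls with CDKN1A guide 2 against CDKN1A guide 1 (NOMO1 is left out for its value of 0). For UNC5B, POSTN and DDIT4 the guide 2 columns are farther from control than the guide 1 columns, for SERPINB2, JUP and SULF1 the guide 1 columns are farther, and in NEFM, RGS5 and ITPR3 the control guides differ from each other too.

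Some values rest on how reads were divided among near-identical copies. NOMO1 had 0.493 and 0 CPM with guide 2 and 23.9 and 40.6 CPM with guide 1, against 16.0 to 37.8 CPM in control, but NOMO1, NOMO2 and NOMO3 together had 189 and 202 CPM with guide 2, 234 and 231 CPM with guide 1 and 198 to 226 CPM in control. Its fitted log2 difference was -6.93, and -11.84 without guide 2 replicate 1. CBSL shares its sequence with CBS, the enzyme that starts transsulfuration, and CBS and CBSL together had 38.6 and 34.5 CPM with guide 2, 29.4 and 25.0 CPM with guide 1 and 22.7 to 28.2 CPM in control. The chorionic gonadotropin gene CGB7 belongs to a cluster of near copies, which together had 27.8 and 24.5 CPM with guide 2, 18.4 and 15.4 CPM with guide 1 and 18.4 to 34.1 CPM in control. These 3 genes are uncertain for that reason.

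Several other lists held no gene that passed the test between the guides: 14 inflammatory cytokines (median log2 -0.02), 17 interferon response genes (0.0), 13 immediate early genes (0.12), 11 heat shock chaperones (-0.03), 19 hypoxia and glycolysis genes (0.04) and 13 mitochondrially encoded mRNAs (-0.07). Of 23 genes of cholesterol synthesis, INSIG1, which holds back sterol synthesis, was the only one called, against 0.658% of all genes called higher. It measured 50.5 and 52.6 CPM with guide 2, 39.8 and 40.3 CPM with guide 1 and 34.9 to 36.7 CPM in control (adjusted p 0.0062, edgeR).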

How the data were processed

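The authors deposited 1 kallisto table per library with estimated counts, TPM and effective lengths for 188753 transcripts. Per the submitters' processing notes, the authors made these estimated counts with kallisto, and the build was hg38; the sources used here give no version or settings. From these, 169797 transcripts (90.0%) were assigned to genes with GENCODE 29, and the unmatched ones, 2.49 to 2.62% of a library's counts, were left out. Within each gene, estimated counts were added up and then rounded to whole numbers. The filterByExpr filter (count minimum 10) kept 13976 genes. A quasi-likelihood model (edgeR 4.0.16, R 4.3.3) with 1 coefficient for each of the 9 guides was fitted to all 18 libraries (TMM scaling, 9 residual degrees of freedom, biological coefficient of variation 6.911%). Genes were called at an adjusted p under 0.05. CPM are TMM-scaled, and SE come from the log2 fold change and F statistic. The deposited TPM served for marker sums and the deposited effective lengths for 1 alternative. Promoters are RefSeq's (GRCh38.p14). The script was tested on simulated data.

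Replicate libraries of each guide differed by more than counting noise, most for SPP1 guide 3 and control guide 1. Named genes are CDKN1A, the 12 called genes that rose most and the 12 that fell most with mean log2 CPM of at least 1 and no overlap between the guides, and up to 4 called members of each of 25 lists, or else the member of smallest p; others are said to be singled out or are given to fill a list. Members, lists and rules were chosen with earlier results of these data known. Alternatives were DESeq2 1.42.0, other scaling, filter, length offset, a replicate block, and libraries left out. One called gene of the lists is not reported here.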

Additional observations from a re-analysis of the deposited data

Results flagged for a closer look

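In 10 of the called named genes the guides lay on opposite sides of all 4 control libraries. With guide 2 above and guide 1 below control these were POSTN (log2 1.31, guide 2 minus guide 1), HMOX1 (1.29), CBSL (0.95), SMAD7 (0.74), TGFBI (0.65), MMP2 (0.54), BGN (0.37) and SLC1A5 (0.3). With guide 2 below and guide 1 above control these were SERPINB2 (-2.13) and MLF1 (-1.49). The count covers named genes only. Other called genes, not named by rule, also had control between the guides. SLC7A5, GDNF, NRP2, SPOCK1, SEL1L3 and KLF7 are examples and not a full list. Libraries of the guides, with control left aside, did not overlap in 44.6% of all genes tested. How often control lay between the guides over all genes was not counted. Without that share the count of 10 describes these genes only and cannot be called high or low. The 10 genes were taken from called genes, so that their differences between the guides pass the test follows from the selection. Against control, both guides passed for HMOX1 (adjusted p 0.000172 with guide 2 and 1.79e-05 with guide 1, edgeR) and SMAD7 (0.0101 and 0.00342). Only guide 2 passed against control for POSTN, and only guide 1 for TGFBI, MMP2, BGN and SERPINB2. Neither guide passed against control for CBSL, SLC1A5 and MLF1. MLF1 measured 2.40 and 1.44 CPM with guide 2 and 5.94 and 4.94 CPM with guide 1, against 4.23, 3.27, 2.52 and 3.96 CPM in control, and CBSL shares reads with CBS: CBS and CBSL together had 38.6 and 34.5 CPM with guide 2, 29.4 and 25.0 CPM with guide 1 and 22.7 to 28.2 CPM in control, so that guide 1 was not below control in the sum.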

How the results depend on the processing

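The 165 calls became 166 with DESeq2's size factors in edgeR, 144 without the filter on low counts, 202 with DESeq2's own test and 176 without the control guide 1 libraries. They became 498 with the 4 CDKN1A libraries alone, 365 without the 6 SPP1 libraries, 333 without the 2 SPP1 guide 3 libraries, whose spread is the widest, and 75 with the transcript length offset; the setting without SPP1 guide 3, like every setting that leaves out a control library, was chosen after seeing the data. Leaving out single libraries gave 45 to 175 calls, the lowest counts coming without a CDKN1A library, which leaves a guide with 1 library assumed to vary like the others. Guide 2 against control had 1315 calls without the SPP1 libraries, 275 with the length offset, and 189 to 835 on leaving out 1 library. Guide 1 against control had 1073, 237 and 157 to 596, with 999 without SPP1 guide 3 and 309 without control guide 1. The control guides differed in 495 genes without the SPP1 libraries, 446 without SPP1 guide 3, 29 with the length offset, and 26 to 129 on leaving out 1 library. Why the counts moved was not tested. The labels give guides the same replicate numbers, but across guides the libraries of a number did not deviate together (correlations -0.103 to 0.071); with the replicate block 143 genes were called, 141 of them among the 165, and the CDKN1A difference was 0.61 (adjusted p 0.00778, edgeR). The CDKN1A difference was 0.57 to 0.65 over all settings. The direction held for all 54 called named genes in the 17 alternatives; 28 kept the call with the length offset and 22 to 26 without 1 CDKN1A library. Values moved over 1.5 times for VEGFA (0.22, against 0.52) and PDGFRA (-0.81, against -1.25) with the length offset, and for NOMO1 (-11.84, against -6.93) without CDKN1A guide 2 replicate 1. MT-ND3, not called, was 0.02 without CDKN1A guide 1 replicate 1 and -0.2 without CDKN1A guide 1 replicate 2, against -0.1 with all libraries. With the 4 CDKN1A libraries alone no comparison with control can be made.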

Other observations

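The 6 genes given here lie outside the lists, were called with all libraries and under all 17 alternatives, and were chosen after their values were seen. RGS4, a regulator of G protein signalling like RGS5, measured 481 and 520 CPM with guide 2 and 792 and 775 CPM with guide 1, against 683 to 730 CPM in control (log2 -0.65 ± 0.05, adjusted p 1.68e-05, edgeR). GDNF, a neurotrophic factor, measured 171 and 165 CPM with guide 2 and 112 and 111 CPM with guide 1, with control between them at 135 to 157 CPM (adjusted p 0.000384). NRP2, a receptor for semaphorins and VEGF, measured 91.5 and 84.9 CPM with guide 2 and 56.5 and 50.6 CPM with guide 1, again with control between them at 64.4 to 75.9 CPM (adjusted p 0.000881). STC1, the secreted glycoprotein stanniocalcin 1, measured 103 and 96.7 CPM with guide 2 and 146 and 152 CPM with guide 1, against 85.3 to 100 CPM in control (adjusted p 0.000881). XYLT1, which starts glycosaminoglycan chains on proteoglycans, measured 132 and 128 CPM with guide 2 and 80.1 and 80.4 CPM with guide 1, against 108 to 146 CPM in control (adjusted p 0.00038). CITED2, a transcriptional coregulator, measured 172 and 157 CPM with guide 2 and 252 and 240 CPM with guide 1, against 244 to 261 CPM in control (adjusted p 0.000727).

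VASN, which encodes a cell surface protein and was singled out after its values were seen, measured 17.4 CPM in guide 1 replicate 1 alone, with 0.705 and 0.532 CPM under guide 2, 0.39 CPM in the other library of guide 1 and 0.557 to 0.932 CPM in control.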
